A study of Homo sapiens with 12 samples.

Results

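The liver X receptor genes NR1H2 and NR1H3 and 4 direct targets of these receptors, ABCA1, ABCG1, MYLIP and LPCAT3, were followed through a study of SETD2 loss in childhood B-cell leukaemia lines. The 6 genes were taken by symbol from a raw count table of 59611 gene symbols, and all 6 were among the 15218 genes that passed the filter on low counts. Messenger RNA was sequenced in 12 libraries, 3 in each of 4 groups. Both lines, 697 and KOPN-8, derive from acute lymphoblastic leukaemia of the B lineage, and the second carries a KMT2A fusion. The groups were 697 cells carrying a guide RNA against SETD2 (clone BM_B), 697 cells with the empty guide vector, KOPN-8 cells carrying the SETD2 guide (clone BA) and KOPN-8 cells with the empty vector. The guide-treated clones are labelled SETD2 heterozygous KO and are called edited here. The vector groups are labelled SETD2 WT and are called controls. The SETD2 enzyme is the main writer of H3K36 trimethylation. Each edited group is 1 clone, so the edit cannot be told apart from other differences of that clone, and p-values reflect variation among libraries rather than among clones.

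Liver X receptors are nuclear receptors that sense sterols. They bind DNA with a retinoid X receptor partner, are switched on by oxysterols, and raise genes that move cholesterol out of the cell. The NR1H2 product, LXR-beta, is made in most tissues, lymphocytes included, whereas the NR1H3 product, LXR-alpha, is typical of liver, fat and macrophages. The sterol-regulated factor SREBP2 works in the opposite sense, raising cholesterol synthesis and uptake when sterols are low.

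Their classical binding site is a pair of AGGTCA half-sites with 4 free bases between them. Promoters are shown for the 3 targets whose level differed in an edited clone, to set the best such match beside the values. They run 5′ to 3′ on the gene's strand, from 250 bases before the annotated start to 50 after it, in RefSeq's GRCh38.p14 build, and a promoter was matched for 5 of the 6 genes. Capitals mark the 16 bases of the match where at least 10 of the 12 half-site letters fit.
ABCA1 (chr9:104928106-104928405, minus strand): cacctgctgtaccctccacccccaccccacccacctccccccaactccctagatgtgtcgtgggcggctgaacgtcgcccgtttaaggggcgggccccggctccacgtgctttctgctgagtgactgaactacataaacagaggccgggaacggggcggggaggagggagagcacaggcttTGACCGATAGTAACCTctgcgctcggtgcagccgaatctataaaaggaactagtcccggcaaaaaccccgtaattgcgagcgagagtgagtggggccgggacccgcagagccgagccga
MYLIP (chr6:16128836-16129135, plus strand): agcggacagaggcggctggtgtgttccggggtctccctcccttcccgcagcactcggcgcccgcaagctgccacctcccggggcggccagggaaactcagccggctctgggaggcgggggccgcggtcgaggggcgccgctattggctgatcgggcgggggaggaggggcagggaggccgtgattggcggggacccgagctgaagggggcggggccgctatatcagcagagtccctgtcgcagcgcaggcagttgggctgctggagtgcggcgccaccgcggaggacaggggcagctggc
LPCAT3 (chr12:7018427-7018726, minus strand): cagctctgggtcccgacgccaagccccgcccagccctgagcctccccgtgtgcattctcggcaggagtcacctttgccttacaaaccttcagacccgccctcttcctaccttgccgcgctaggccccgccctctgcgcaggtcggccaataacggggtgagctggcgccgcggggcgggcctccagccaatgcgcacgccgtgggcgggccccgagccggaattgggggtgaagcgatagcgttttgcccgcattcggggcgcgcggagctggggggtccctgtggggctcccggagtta
The motif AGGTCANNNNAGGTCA was searched on both strands. In ABCA1 the best window, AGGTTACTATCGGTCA on the opposite strand, matched 10 of the 12 letters, as did at least 1 window in 2.34% of 35116 promoters of this length. The best windows of MYLIP and LPCAT3 matched 8 letters, which 72.5% of promoters reach. Elsewhere the ABCA1 promoter also holds CACGTG, a sequence found in 7.26% of promoters. These matches are descriptions of sequence, and sites outside these windows were not searched.

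Library totals ran from 10378769 to 14350925 counts in edited 697, 13432744 to 17163305 in control 697, 13239627 to 18278662 in edited KOPN-8 and 13208436 to 17959678 in control KOPN-8. Levels are in CPM, counts scaled by library size. A library without a count for a gene still allows up to 3 counts, or 0.159 to 0.292 CPM at these depths. SETD2 mRNA was at 207 to 238 CPM in edited 697, against 156 to 169 CPM in control 697, and at 151 to 162 CPM in edited KOPN-8, against 159 to 177 CPM in control KOPN-8. A frameshifted allele can still be transcribed, so these counts do not check the genotype labels. Of 10 B-lineage markers, 9 or 10 reached 5 CPM in each group. Of 10 macrophage and monocyte markers, CD163, MRC1, MARCO, FCGR3A and S100A8 had 0 counts in all libraries. Of the 3 tested, LYZ averaged 2.97 CPM in edited and 0.522 CPM in control KOPN-8 (log2 fold change 2.48, edgeR adjusted p = 2.88e-05). ITGAM averaged 2.02 CPM in edited and 1.71 CPM in control KOPN-8, and CSF1R 0.965 CPM in edited and 1.57 CPM in control 697. Neither reached an edgeR adjusted p under 0.05 for edited against control in either line. The summed level of the 10 markers was 0.883 to 1.75 CPM in edited 697 and 1.83 to 2.26 CPM in control 697. It was 4.56 to 5.76 CPM in edited KOPN-8 and 1.90 to 3.09 CPM in control KOPN-8.

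LXR-beta was the main receptor transcript in both lines. Per kilobase of merged exons, NR1H2 stood above NR1H3 in every library, with a ratio of 9.01 ± 0.542 in edited 697, 8.95 ± 2.03 in control 697, 16.5 ± 3.61 in edited KOPN-8 and 13.7 ± 0.596 in control KOPN-8 (SD, n = 3 each). In levels per kilobase (CPM per kb, mean ± SD, n = 3), control 697 ranked MYLIP at 16.4 ± 4.96, NR1H2 at 10.8 ± 1.16, LPCAT3 at 8.70 ± 0.662, ABCA1 at 6.53 ± 0.830, ABCG1 at 1.31 ± 0.421 and NR1H3 at 1.25 ± 0.321. In that order the libraries of MYLIP and NR1H2 overlapped, and so did those of ABCG1 and NR1H3, while the other neighbours were apart. Edited 697 kept the order, with only ABCG1 and NR1H3 overlapping. Control KOPN-8 had the same order for MYLIP, NR1H2, LPCAT3 and ABCA1, at 16.8, 14.5, 9.51 and 2.62 CPM per kb, followed by NR1H3 at 1.05 CPM per kb and ABCG1 at 0.0110 CPM per kb, with no overlap between neighbours. In edited KOPN-8 MYLIP, at 8.92 ± 0.365 CPM per kb, ranked below NR1H2 at 17.7 ± 0.840 and LPCAT3 at 12.5 ± 0.630. ABCA1 at 1.37 ± 0.205 CPM per kb then overlapped NR1H3 at 1.10 ± 0.179 CPM per kb.

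**Figure D1:**
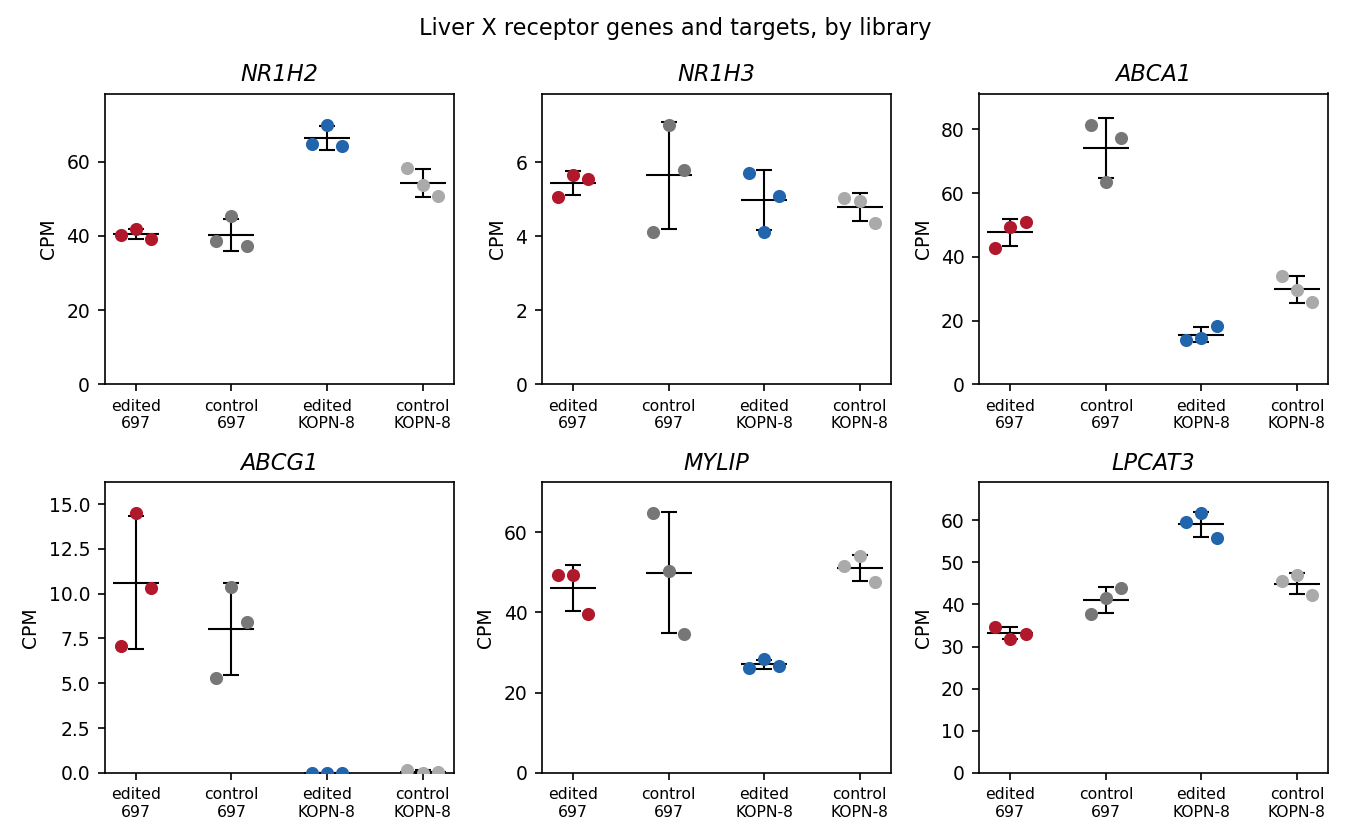
CPM of each gene in every library, with edited 697, control 697, edited KOPN-8 and control KOPN-8 from left to right. Points are libraries in replicate order, the long bar is the mean and the whiskers are 1 SD (n = 3). ABCA1 is lower in the edited than in the control libraries of both lines, and ABCG1 is near 0 in KOPN-8.

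The lines differed in the efflux transporters before editing. Control KOPN-8 had ABCG1 counts of 2, 0 and 1, against 81, 172 and 112 counts in control 697. ABCG1, which passes cholesterol to high-density lipoprotein, was thus 132 times as high in control 697 (95% counting interval 44.9 to 645). ABCA1, which loads cholesterol and phospholipid onto apolipoprotein A-I, averaged 29.7 ± 4.21 CPM in control KOPN-8 and 74.1 ± 9.42 CPM in control 697 (SD, n = 3 each), a log2 fold change of -1.32 (SE 0.115; edgeR adjusted p = 9.83e-10). All adjusted p-values here are Benjamini-Hochberg values from edgeR's test over all genes tested. NR1H2 was higher in control KOPN-8, at 54.3 ± 3.81 CPM, than in control 697, at 40.3 ± 4.36 CPM (log2 fold change 0.42, SE 0.0834; edgeR adjusted p = 8.10e-05). These 3 of 6 genes were called, at an adjusted p under 0.05, where 73.3% of all genes tested were (36.6% higher, 36.7% lower). NR1H3, MYLIP and LPCAT3 were not called between the controls (log2 fold changes -0.25, 0.03 and 0.13). NR1H3 was called lower without control 697 replicate 1 (log2 fold change -0.43, edgeR adjusted p = 0.0394).

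ABCA1 was lower in both edited clones. In 697 it had 42.7, 49.4 and 50.9 CPM in edited cells, against 81.5, 63.5 and 77.4 CPM in control cells. Every edited library lay below every control. The level fell by 35.8% (log2 fold change -0.64, 95% interval -0.87 to -0.40, SE 0.112; edgeR adjusted p = 0.000546). In KOPN-8 ABCA1 had 13.9, 14.5 and 18.2 CPM in edited cells, against 34.1, 29.5 and 25.7 CPM in control cells. The groups were again apart. The level fell by 47.5% (log2 fold change -0.93, 95% interval -1.19 to -0.67, SE 0.126; edgeR adjusted p = 5.89e-06). The changes of the 2 lines differed by -0.29 on the log2 scale (95% interval -0.64 to 0.06; edgeR adjusted p = 0.265), so a difference between the lines was not detectable. With any single library left out, the log2 fold change of ABCA1 lay between -0.74 and -0.56 in 697 and between -1.06 and -0.82 in KOPN-8 and was called each time.

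ABCG1, the partner of ABCA1 in cholesterol efflux, gave no called change in 697. It had 7.07, 14.5 and 10.3 CPM in edited cells, against 5.30, 10.4 and 8.44 CPM in control cells. The groups overlapped, and replicate 2 was the highest of each. Taken by replicate number, which the labels do not give as pairs, the edited library was above its control in 3 of 3 cases. The log2 fold change was 0.40 (95% interval -0.18 to 0.98; edgeR adjusted p = 0.432), and 0.40 (SE 0.156; edgeR adjusted p = 0.0841) with the replicate block. Leaving out edited replicate 2 gave 0.10 and leaving out edited replicate 1 gave 0.63. Leaving out control replicate 1 gave 0.17 and leaving out control replicate 2 gave 0.64, and ABCG1 was called in none of these fits. In KOPN-8 it had 0 counts in the 3 edited libraries, which allows up to 0.0594 CPM over the group, and 3 counts in the controls. No change can be read from these counts. Edited 697, at 10.7 CPM over the group, stood at least 180-fold above edited KOPN-8.

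MYLIP, the ubiquitin ligase that sends lipoprotein receptors to lysosomes, was lower in the edited KOPN-8 clone. It had 26.2, 28.3 and 26.6 CPM in edited cells, against 51.6, 54.0 and 47.6 CPM in control cells. The groups did not overlap. The level fell by 47.1% (log2 fold change -0.92, 95% interval -1.30 to -0.54, SE 0.174; edgeR adjusted p = 0.00138). In 697 MYLIP had 49.3, 49.4 and 39.5 CPM in edited cells, against 64.7, 50.2 and 34.6 CPM in control cells. The controls spread widely, replicate 3 was the lowest of each group, and the groups overlapped. The log2 fold change was -0.11 (95% interval -0.49 to 0.26; edgeR adjusted p = 0.771). It was 0.12 without control replicate 1, and was called in neither case. The KOPN-8 change was lower than the 697 change by a log2 difference of -0.80 (SE 0.244; edgeR adjusted p = 0.0357). That call was lost without any 1 of 8 libraries: edited 697 replicate 1 or 2, control 697 replicate 2, any edited KOPN-8 library, or control KOPN-8 replicate 1 or 2, with adjusted p-values up to 0.0925.

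LPCAT3, which places polyunsaturated fatty acids into membrane phospholipids, moved in opposite directions. In 697 it had 34.7, 31.9 and 32.9 CPM in edited cells, against 37.7, 41.6 and 43.9 CPM in control cells. All edited libraries were lower. The log2 fold change was -0.31 (95% interval -0.48 to -0.14, SE 0.0834; edgeR adjusted p = 0.0185). This call was lost without edited replicate 2 (adjusted p = 0.0767), control replicate 2 (0.0515) or control replicate 3 (0.0883), and with the 697 libraries fitted alone (0.0672). In KOPN-8 LPCAT3 had 59.6, 61.7 and 55.8 CPM in edited cells, against 45.6, 47.0 and 42.2 CPM in control cells. All edited libraries were higher. The log2 fold change was 0.39 (95% interval 0.23 to 0.55, SE 0.0784; edgeR adjusted p = 0.000414). The KOPN-8 change exceeded the 697 change by 0.70 on the log2 scale (SE 0.114; edgeR adjusted p = 6.69e-05), and this held without any single library. In GENCODE EMG1 overlaps LPCAT3 on the opposite strand, and the sources used here do not say whether counting used strand. EMG1 itself was not called in either line (log2 fold changes -0.10 in 697 and 0.05 in KOPN-8).

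Of the receptors, NR1H2 rose modestly in edited KOPN-8. It had 64.8, 70.0 and 64.3 CPM in edited cells, against 58.3, 53.7 and 50.8 CPM in control cells, with no overlap. The log2 fold change was 0.29 (95% interval 0.12 to 0.46, SE 0.0809; edgeR adjusted p = 0.00798), and the call was lost without control replicate 3 (adjusted p = 0.0586). In 697 NR1H2 had 40.2, 41.9 and 39.2 CPM in edited cells, against 38.5, 45.3 and 37.2 CPM in control cells. The groups overlapped, and the 95% interval of the log2 fold change ran from -0.18 to 0.18. The difference between the lines, 0.29 on the log2 scale, was not called (edgeR adjusted p = 0.0918). It was called when replicate number was a block within each line (edgeR adjusted p = 0.0342). That fit also blocks the KOPN-8 libraries, whose same-numbered libraries deviated together less than those of 697. The labels do not give replicate numbers as pairs in either line. NR1H3 was low in all groups, from 4.12 to 7.02 CPM in any library, and was not called in 697 (log2 fold change -0.06, 95% interval -0.46 to 0.33) or in KOPN-8 (0.08, -0.31 to 0.46). NAPSB, on the opposite strand, overlaps NR1H2. It averaged 10.9 CPM in KOPN-8, where it rose too (log2 fold change 0.57, edgeR adjusted p = 0.00797).

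In 697, then, 2 of the 6 genes were called, both lower, where 9.45% of all genes tested were called (4.85% higher, 4.6% lower). In KOPN-8, leaving out ABCG1, 4 of 5 were called, 2 higher and 2 lower, where 28.7% of all genes were (11.5% higher, 17.2% lower). For the difference between the lines 2 of these 5 were called, 1 in each direction, where 19.5% of all genes were (7.46% higher, 12.1% lower). With so few genes these shares are descriptions.

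**Figure D2:**
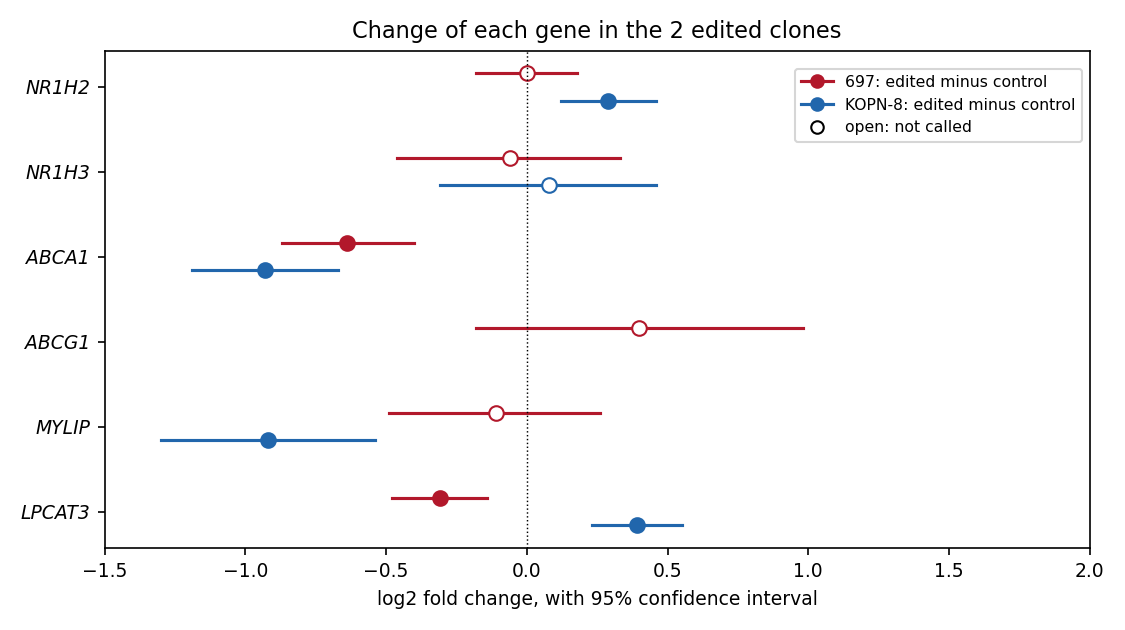
Log2 fold change of each gene, edited minus control, with its 95% confidence interval (x axis) in 697 (red) and KOPN-8 (blue). Filled points were called at an adjusted p under 0.05, and ABCG1 in KOPN-8 is left out because its counts were at or near 0. ABCA1 lies below 0 in both lines, MYLIP is called only in KOPN-8, and LPCAT3 lies on opposite sides of 0.

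The 6 genes lie on 6 different chromosomes. ABCA1 on chromosome 9 had other lowered genes around it in KOPN-8. Of its 20 nearest tested genes, 10 on each side in GENCODE order, 13 had at least 4 CPM in KOPN-8. Of those 13, 6 were called lower and 2 higher, with a median log2 fold change of -0.11. Over all genes tested in KOPN-8, 17.2% were called lower and 11.5% higher. Among the 6 lower neighbours were NIPSNAP3A (-0.50), SLC44A1 (-0.59), TMEM38B (-0.45), RAD23B (-0.34) and CTNNAL1 (-0.43). ABCA1 itself fell further, by 0.93 on the log2 scale. In 697 none of its 16 expressed neighbours was called by edgeR, where 9.45% of all genes tested were. The median over 418 expressed genes of chromosome 9 was 0.02 in KOPN-8. NR1H2 on chromosome 19 had 4 of 16 expressed neighbours called higher and 0 lower in KOPN-8, with a median of 0.24 beside its own 0.29. Around MYLIP on chromosome 6, 4 of 12 expressed neighbours were lower and 1 higher in KOPN-8, with a median of 0.05. Around LPCAT3 on chromosome 12, 4 of 14 were lower and 4 higher. DNA copy number was not measured, and the part of such neighbours in each change was not tested.

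**Figure D3:**
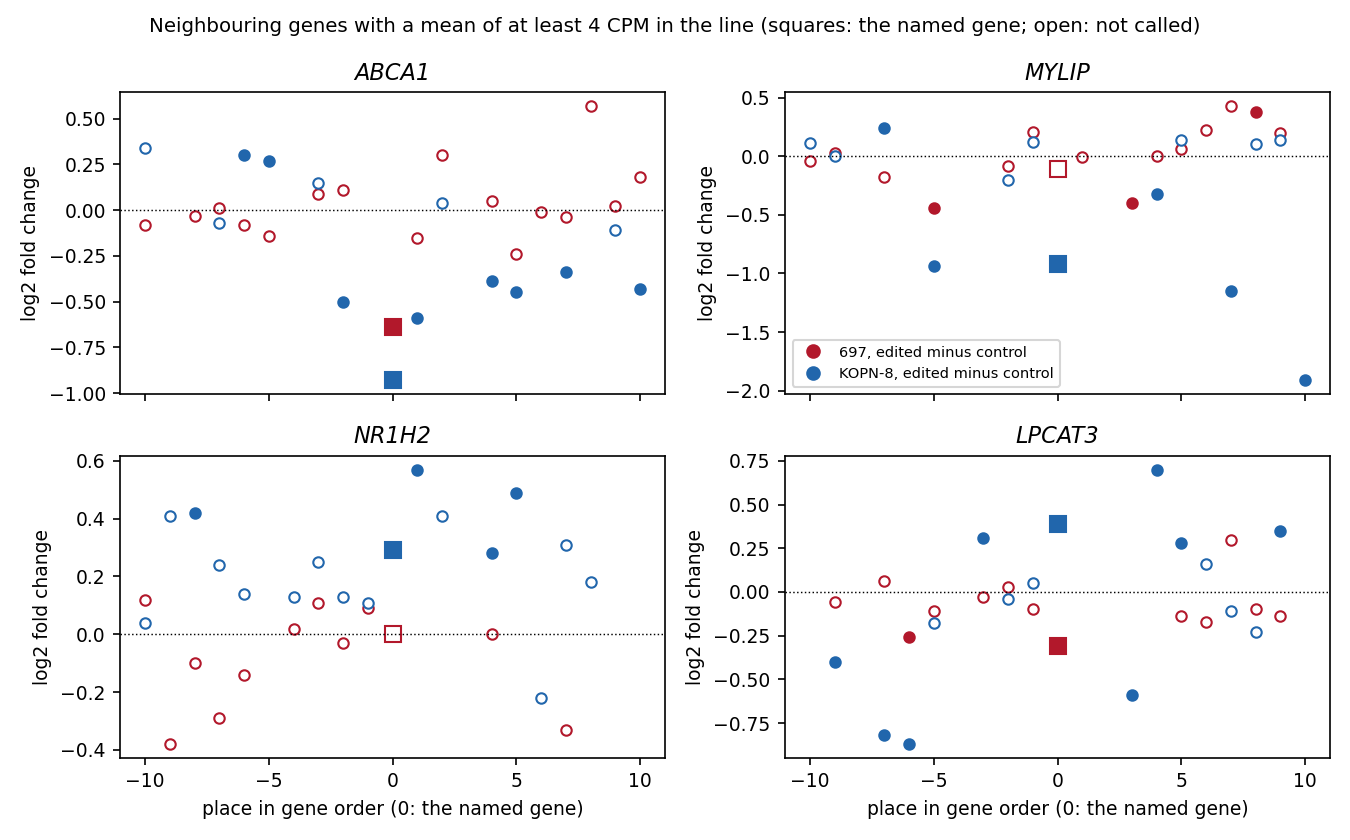
Log2 fold change, edited minus control (y axis), of ABCA1, MYLIP, NR1H2 and LPCAT3 (squares, at 0) and of up to 10 tested genes on each side in chromosome order (circles, x axis), in 697 (red) and KOPN-8 (blue), for genes with at least 4 CPM in the line. Filled symbols were called. In KOPN-8 6 of 13 neighbours of ABCA1 and 0 of 16 neighbours of NR1H2 are called lower. Over all genes tested in KOPN-8, 17.2% were called lower.

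Of 9 tested partners and coregulators of the receptors, 0 were called by edgeR in 697 and 1 had an unadjusted p under 0.05 (median log2 fold change 0.01, beside 0.00 over all genes tested). In KOPN-8 2 were called higher and 1 lower (median 0.06). Over all genes tested 9.45% were called in 697 and 28.7% in KOPN-8, so these counts are close to those shares. RXRA, the partner receptor, stood at 134 CPM in both edited and control KOPN-8 and at 49.0 CPM in edited and 48.7 CPM in control 697. The coactivators NCOA3 (log2 fold change 0.25) and NCOA1 (0.55, at 3.26 CPM in edited and 2.23 CPM in control libraries) rose in KOPN-8. NCOA2 (-0.64) fell, and it lies on chromosome 8, whose expressed genes had a median log2 fold change of -0.53 in KOPN-8.

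Other known targets of the receptors did not move as one. Of 25 listed, 10 were expressed enough to be tested, and the lipoprotein genes APOE and APOC1 stood below 2 CPM in each group. In 697 3 of the 10 fell, 0 rose and 7 were not called (median log2 fold change -0.06). Over all genes tested 4.6% were called lower in 697. The 3 that fell were the lipid synthesis genes FASN (-0.49), SCD (-0.25) and SREBF1 (-0.36), which are also driven by SREBP factors. SREBF1 had 210, 233 and 221 CPM in edited 697, against 245, 309 and 297 CPM in control 697. In KOPN-8, where 28.7% of all genes tested were called, 1 rose, 2 fell and 7 were not called (median -0.15). SCD (-0.28) was among those that fell. CETP, a lipid transfer protein gene, was called higher there at only 0.388 CPM in edited and 0.0817 CPM in control libraries.

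Of 12 listed genes that make or remove sterol ligands, 4 were tested. In 697, where 9.45% of all genes tested were called, 1 of the 4 rose, 1 fell and 2 were not called. In KOPN-8, where 28.7% were, 1 rose and 3 were not called. LSS, which closes the sterol rings, fell in 697 (log2 fold change -0.24) and rose in KOPN-8 (0.27). It stood at 113 ± 6.63 CPM in edited 697, against 133 ± 0.673 CPM in control 697, and at 76.7 ± 3.04 CPM in edited KOPN-8, against 63.5 ± 1.08 CPM in control KOPN-8 (SD, n = 3 each). The changes of the lines differed by 0.51 on the log2 scale (edgeR adjusted p = 0.000232). For that difference 1 of the 4 was called higher and 2 lower, beside 19.5% of all genes tested. CYP46A1 was 1 of the 2 lower (-1.83, edgeR adjusted p = 0.035). It averaged 3.33 CPM in edited and 2.15 CPM in control 697, and was not called there (0.62, edgeR adjusted p = 0.171). In KOPN-8 it averaged only 0.196 CPM in edited and 0.469 CPM in control libraries, and was not called (-1.21). CYP27A1 and CH25H, which make oxysterols, had 21 and 11 counts over all 12 libraries and were not tested. Oxysterols were not measured.

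Of 7 tested genes of lipoprotein uptake, 1 fell and 6 were not called in 697 (median log2 fold change -0.19). In KOPN-8 3 of the 7 rose and 2 fell (median -0.18). Over all genes tested 9.45% were called in 697 and 28.7% in KOPN-8. Those of the 7 that rose in KOPN-8 included VLDLR and LRP8, whose proteins are lipoprotein receptors and substrates of the MYLIP ligase. VLDLR had 16.7, 20.1 and 26.8 CPM in edited KOPN-8, against 13.6, 9.14 and 10.5 CPM in control KOPN-8. All edited libraries lay above all controls. The log2 fold change was 0.95 (edgeR adjusted p = 0.000509), and it was -0.02 and not called in 697. LRP8 had 109, 101 and 136 CPM in edited KOPN-8, against 87.0, 87.1 and 90.4 CPM in control KOPN-8. These groups did not overlap either, and LRP8 rose by 0.39 on the log2 scale (edgeR adjusted p = 0.00201). The changes of the lines differed by 0.97 for VLDLR (edgeR adjusted p = 0.00508) and by 0.58 for LRP8 (edgeR adjusted p = 0.00232). USP2, a deubiquitinase that counteracts MYLIP, fell in KOPN-8 (log2 fold change -3.46), as did SCARB1, the HDL receptor gene (-0.65). The USP2 level was low, at 0.322 CPM in edited and 3.83 CPM in control KOPN-8. The protein levels of these receptors were not measured.

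Most listed genes of the SREBP2 pathway had lower mRNA in edited 697, where 4.6% of all genes tested were called lower. Of 17 tested genes 13 were called lower, 0 higher and 4 not (median log2 fold change -0.35), with HMGCS1 at -0.60, DHCR7 at -0.68 and SC5D at -0.42. In KOPN-8, where 28.7% of all genes tested were called, 1 rose and 3 fell (median 0.02). The 3 were SC5D (-0.27) and, on chromosome 8, FDFT1 (-0.77) and SQLE (-0.63). The difference between the lines was called for 11 of the 17, 9 of them higher in KOPN-8, beside 19.5% of all genes tested. Activity of the SREBP2 protein was not measured.

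**Figure D4:**
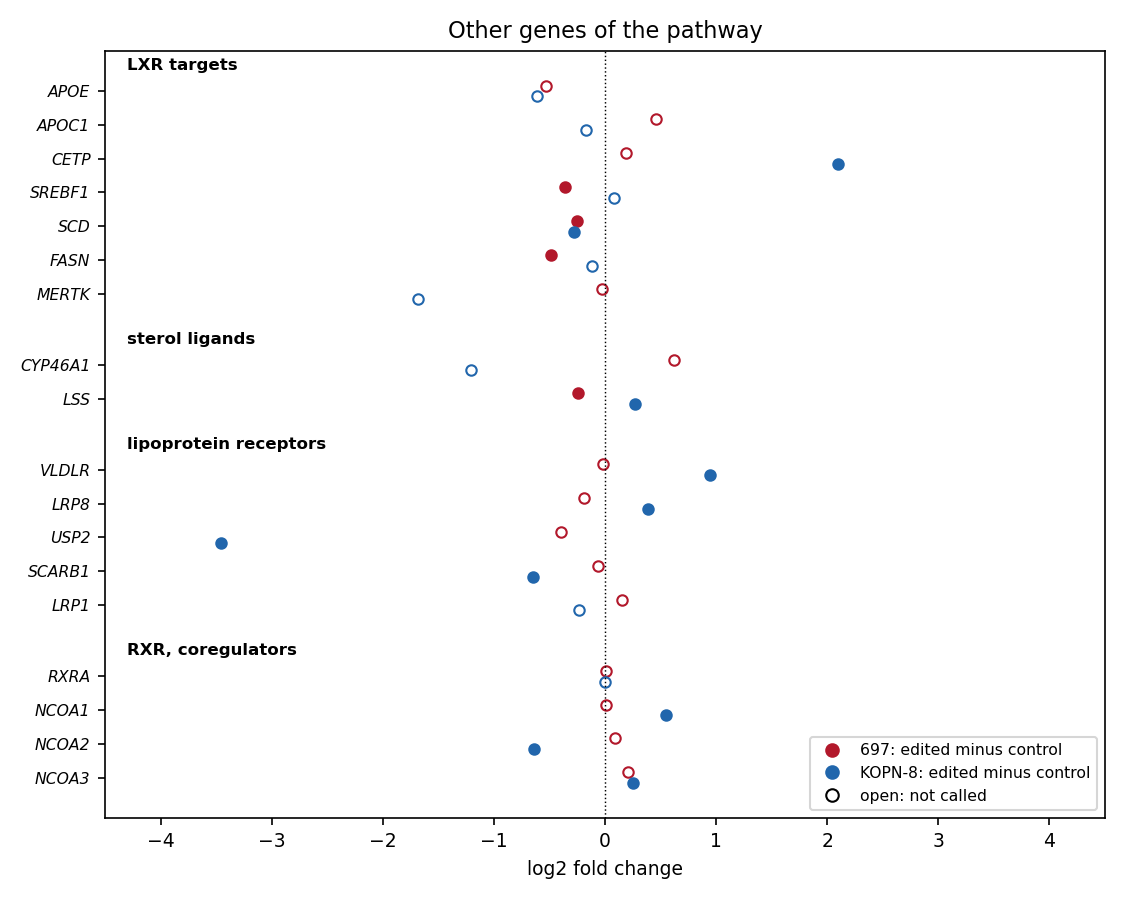
Log2 fold change, edited minus control (x axis), of tested genes named in the text or in this caption, in 697 (red) and KOPN-8 (blue). They are grouped by role: receptor targets, sterol ligand genes, lipoprotein uptake genes, and receptor partners and coregulators. Genes from the other lists, the SREBP2 pathway among them, are not drawn. Filled points were called at an adjusted p under 0.05. VLDLR lies at 0.95 in KOPN-8 and at -0.02 in 697. APOE, APOC1, CETP, MERTK, CYP46A1 and LRP1 stood below 1 CPM in KOPN-8, and USP2 did in edited KOPN-8.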

How the data were processed

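Stranded poly-A RNA-seq libraries were used, 3 in each of 4 groups taken from the sample titles. The submitters' processing notes name hg19 and the tools STAR, Trimmomatic and DESeq2. Tool versions, read counter and gene annotation are not given in these sources. The authors deposited raw read counts per symbol, which were used, and a normalized copy, which was not.

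edgeR 4.0.16 under R 4.3.3 fitted 1 mean per group to all 12 libraries at once, after filterByExpr and TMM scaling, and tested contrasts by robust quasi-likelihood F tests. Benjamini-Hochberg adjustment ran over 15218 genes, with calls at an adjusted p under 0.05. A standard error is the log2 fold change divided by the root of F. DESeq2 1.42.0 served as an alternative. The code was tested on simulated data. The counting interval of the ABCG1 ratio and the floors cover counting error only. Intervals of log2 fold changes were built from the standard error of the quasi-likelihood fit, so they also cover variation among libraries. Same-numbered 697 libraries deviated together (r = 0.105, 0.207 and 0.104). For that reason only, they were treated as pairs in side comparisons, not in the main fit. Same-numbered KOPN-8 libraries deviated together less (0.0508, 0.0362 and 0.0743), though each value was above those of unlike numbers in KOPN-8 (-0.0532 to 0.00754). The labels do not say that replicate numbers pair libraries in either line. The main fit was unpaired. The alternative with a replicate block blocks the numbers within each line, KOPN-8 included. No libraries of a group were duplicates (chi-square over degrees of freedom 2.91 to 10.7 between them). The labels call them biological replicates without saying how cultures were kept apart.

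Exon lengths, strands and gene order came from GENCODE release 29 on GRCh38, a different build from the submitters', so lengths are approximate. The genes, the lists and the rules for naming genes were chosen with earlier results of these data known. The rule named the 6 genes, up to 3 called genes with the smallest p per list and line, and the 3 genes most like each of the 6 in pattern. Untested list genes, LRP8, SREBF1's library values and neighbouring genes were named after values were seen. RXRA, APOE, APOC1, CYP46A1, LYZ, ITGAM and CSF1R, and in a caption MERTK and LRP1, were also named outside this rule. All 131 list entries were found under their symbols. Some genes counted in the lists are not reported here by name.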

Additional observations from a re-analysis of the deposited data

Results flagged for a closer look

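MYLIP and LPCAT3 were marked because the 2 lines changed differently by a direct test. For MYLIP the KOPN-8 change minus the 697 change was -0.80 on the log2 scale (edgeR quasi-likelihood, Benjamini-Hochberg adjusted p = 0.0357), with all 3 edited KOPN-8 libraries below all controls and overlapping groups in 697. That call was lost in 8 of the 12 fits without 1 library (edgeR adjusted p up to 0.0925). For LPCAT3 the KOPN-8 change minus the 697 change was 0.70 (edgeR adjusted p = 6.69e-05), and it was called without any single library. All edited libraries were above the controls in KOPN-8 and below them in 697.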

How the results depend on the processing

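Of 311 values of the 6 genes under another setting or without 1 library, 285 kept their direction and side of the threshold. The rest were these. With each line's libraries fitted alone, LPCAT3 in 697 kept -0.31 but missed the threshold, leaving 1 gene called lower, and NR1H2 in 697 turned to -0.00044. Upper-quartile scaling turned MYLIP between the controls to -0.06. The replicate block raised NR1H2 for the line difference past the threshold at 0.29, making 2 genes higher, and gave 1156 higher and 1163 lower calls over all genes in 697, against 738 and 700; it changed no other call of the 6 genes. Without 1 library each, log2 fold changes in 697 ran from -0.06 to 0.10 for NR1H2, -0.25 to 0.14 for NR1H3, -0.32 to 0.12 for MYLIP and -0.37 to -0.26 for LPCAT3, with 1 to 2 genes called lower. In KOPN-8 they ran from 0.24 to 0.34 for NR1H2 and -0.038 to 0.18 for NR1H3, with 1 to 2 called higher. For the line difference they ran from -0.06 to 0.32 for NR1H3 and -1.03 to -0.59 for MYLIP, with 0 to 1 called lower. Between the controls they ran from -0.43 to -0.048 for NR1H3 and -0.19 to 0.26 for MYLIP. The causes were not tested. NR1H3 and ABCG1, with the fewest counts, had the widest intervals.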

Other observations

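Of 11 tested genes that store cholesterol or carry it out of lysosomes, 0 in 697 were called by edgeR's quasi-likelihood test and 1 had an unadjusted p under 0.05 (median log2 fold change 0.02). Over all genes tested 9.45% were called in 697 and 28.7% in KOPN-8, so a count of 0 among 11 is close to the share in 697. In KOPN-8 LIPA, the lysosomal acid lipase gene, was the 1 called, at 56.3 CPM in edited and 47.4 CPM in control libraries (0.25). Of 11 acyltransferase genes beside LPCAT3, 1 rose in 697, LPCAT1, with 64.6, 62.8 and 55.4 CPM in edited 697 and 48.2, 47.1 and 42.5 CPM in control 697 (0.41). In KOPN-8 1 rose and 4 fell, among them AGPAT3 (-1.03), MBOAT1 (-0.76) and, on chromosome 8, AGPAT5 (-0.59).

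Across all 12 libraries, among 10808 other genes averaging 5 CPM or more, profiles most like ABCA1 in log2 CPM were those of PCBP4 (Pearson r = 0.977), ZNF589 (0.976) and CLDN12 (0.974). For MYLIP they were CPT1A (0.914), PHLDA1 (0.908) and PM20D2 (0.906), for LPCAT3 NDEL1 (0.979), NLRP3 (0.967) and UFD1 (0.965), and for NR1H2 USF1 (0.988), ARHGAP45 (0.983) and PITPNM1 (0.982). ABCG1 was most like CHD3, GRASP and KDM5B (0.994 each, among 10809 genes) and NR1H3 like CIAO3 (0.819), C1orf159 (0.797) and BCL2L1 (0.790). The libraries share their line and group, which sets much of such likeness.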
